A study of Mus musculus with 4 samples.

Results

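The 9 genes described here make or control cholesterol. Hmgcs1, Idi1, Fdps, Fdft1, Sqle, Lss, Cyp51 and Dhcr7 encode enzymes of its synthesis, and Insig1 encodes a protein of the endoplasmic reticulum that restrains this synthesis. They were chosen by symbol, with earlier results of these data known, and all 9 were found among the 31253 genes of the deposited matrices. The scecRNA-seq libraries held RFP-positive cells sorted from the left ventricle of lineage-tracing mice that carried R26-stop-tdTomato, a tamoxifen-inducible Cre driven by the Cdh5 promoter, and floxed Scarb1, the gene of the lipoprotein receptor SR-B1, in which exon 2 was flanked by loxP sites. NC 1 and NC 2 came from mice on Chow diet, a control diet in which fat supplied 10% of the energy, with normal water. HFpEF 1 and HFpEF 2 came from mice on HFD plus L-NAME, that is a diet in which fat supplied 60% of the energy, together with the nitric oxide synthase inhibitor L-NAME at 0.5 mg/mL in the water.

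The series design names Sfl/fl/RΔEC and Sfl/+/RΔEC mice on each regimen, but the labels give no genotype for any library. The paper describes 4 groups, by diet and genotype, and the series holds 4 libraries. The libraries of a diet may therefore differ in genotype and not be replicates. They were treated as replicates here, so any genotype difference was counted as spread within a diet. The number and age of the mice in a library are not given in the sources used here, and p-values measure only the spread between these 4 libraries. Scarb1 itself read 125, 52.0, 127 and 58.5 CPM (UMIs of the gene scaled to 1 common total per library) in capillary ECs of NC 1, NC 2, HFpEF 1 and HFpEF 2. The paper reported lower Scarb1 in capillary ECs of Sfl/fl/RΔEC than of Sfl/+/RΔEC mice on each regimen, and took this as successful knockout. The 3' tags lie outside the floxed exon and do not read the deletion itself, and no library was given a genotype from these values. Only the diets were compared.

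Cholesterol synthesis starts from acetyl-CoA, which is built into mevalonate, then into isoprenoid units, squalene, lanosterol and finally cholesterol. The transcription factor SREBP2 turns on genes of this pathway when membrane sterol is low. Its escort SCAP carries it to the Golgi for cleavage, and the INSIG proteins hold the SCAP-SREBP complex in the endoplasmic reticulum when sterol is plentiful. INSIG1 is itself an SREBP target. Endothelial cells line the vessels and can also take cholesterol from circulating lipoproteins.

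In the GENCODE annotation of GRCm38, all 9 are protein-coding genes. Hmgcs1 lies on chr13:119690379-119708260 and Idi1 on chr13:8885501-8892451, both on the plus strand. Fdps lies on chr3:89093588-89101959, Fdft1 on chr14:63145150-63179578 and Cyp51 on chr5:4081145-4104746, each on the minus strand. Sqle (chr15:59315077-59331192), Lss (chr10:76531588-76557138), Dhcr7 (chr7:143823145-143848410) and Insig1 (chr5:28071363-28078662) lie on the plus strand.

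Promoter sequence from RefSeq (GRCm38.p6; 250 bases before to 50 bases after the annotated start) matched 6 of the 9 genes, in 8 windows; Sqle, Fdps and Fdft1 are named only. The windows of Hmgcs1, Insig1 and Idi1 are shown. Hmgcs1 is the first enzyme of the list, and Insig1 had the largest fitted difference between diets in capillary ECs. Capitals mark matches, on either strand, to the sterol regulatory element letters TCACNCCAC and to the CCAAT letters bound by NF-Y, a partner of SREBP. The windows are Hmgcs1 chr13:119690101-119690400, Insig1 chr5:28071162-28071461 and Idi1 chr13:8885356-8885655, all on the plus strand.
Hmgcs1: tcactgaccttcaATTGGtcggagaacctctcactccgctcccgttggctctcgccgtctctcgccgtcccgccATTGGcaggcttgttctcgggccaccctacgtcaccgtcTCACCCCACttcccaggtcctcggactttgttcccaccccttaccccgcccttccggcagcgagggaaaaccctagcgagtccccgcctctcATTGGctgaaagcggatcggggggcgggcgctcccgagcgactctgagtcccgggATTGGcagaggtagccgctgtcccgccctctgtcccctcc
Insig1: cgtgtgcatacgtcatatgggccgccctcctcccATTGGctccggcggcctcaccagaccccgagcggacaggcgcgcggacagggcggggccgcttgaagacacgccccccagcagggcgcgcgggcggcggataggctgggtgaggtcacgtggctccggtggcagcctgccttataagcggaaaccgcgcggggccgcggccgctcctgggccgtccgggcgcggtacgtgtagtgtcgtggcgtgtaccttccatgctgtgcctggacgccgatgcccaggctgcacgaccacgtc
Idi1: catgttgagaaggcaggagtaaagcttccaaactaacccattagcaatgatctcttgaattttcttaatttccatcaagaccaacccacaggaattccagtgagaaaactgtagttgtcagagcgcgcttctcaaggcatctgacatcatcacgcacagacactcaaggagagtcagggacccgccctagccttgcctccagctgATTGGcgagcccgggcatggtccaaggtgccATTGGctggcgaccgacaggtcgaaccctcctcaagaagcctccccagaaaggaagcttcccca

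TCACNCCAC was found in 1 of the 8 windows, that of Hmgcs1, where it starts 137 bases before the annotated start. Among all 32851 promoter windows of the same length, 1.24% hold it. CCAAT or its reverse complement was found in 6 of the 8 windows and in every one of the 6 genes, beside 37.4% of all windows. These matches describe letters only.

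Cells with more than 200 genes and less than 20% mitochondrial UMIs numbered 7123 in NC 1, 6695 in NC 2, 5454 in HFpEF 1 and 20882 in HFpEF 2. The 4 libraries then held 10801149 to 47117650 UMIs, the fewest in HFpEF 1 and the most in HFpEF 2. HFpEF cells were shallower, with a median of 1736.5 and 1619 UMIs against 3754 and 4127 in NC, and pairs of libraries shared 10 to 42 cell barcodes. Marker genes divided the cells into ECs of capillary, artery and vein and into mural cells, the pericyte-like and smooth muscle-like cells of the vessel wall. Capillary was the default class of EC clusters that passed no other marker threshold, and no capillary marker was required. Pericyte markers summed to 11796 to 13868 CPM in mural cells and 113 to 187 in capillary ECs, while EC markers stood at 3136 to 3587 in mural cells against 6106 to 7113 in capillary ECs. EC transcripts were thus present in the mural sums, and their part in the mural values was not tested. The 2 largest capillary clusters were led by hemoglobin genes, 1 of them with the cardiomyocyte genes Myl2, Myl3 and Tnni3. They held 16.4%, 13.4%, 44.1% and 47.0% of the capillary cells of NC 1, NC 2, HFpEF 1 and HFpEF 2, and carried capillary markers at 44252 to 53302 CPM, against 40023 to 51519 in the other capillary clusters.

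Values in the diet comparisons are TMM-normalised CPM computed from UMIs summed over the cells of a class, and a gene was called at an adjusted p under 0.05 in edgeR's quasi-likelihood test over all genes tested. In sums of this kind, fewer expressing cells and less RNA per cell cannot be told apart.

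**Figure D1:**
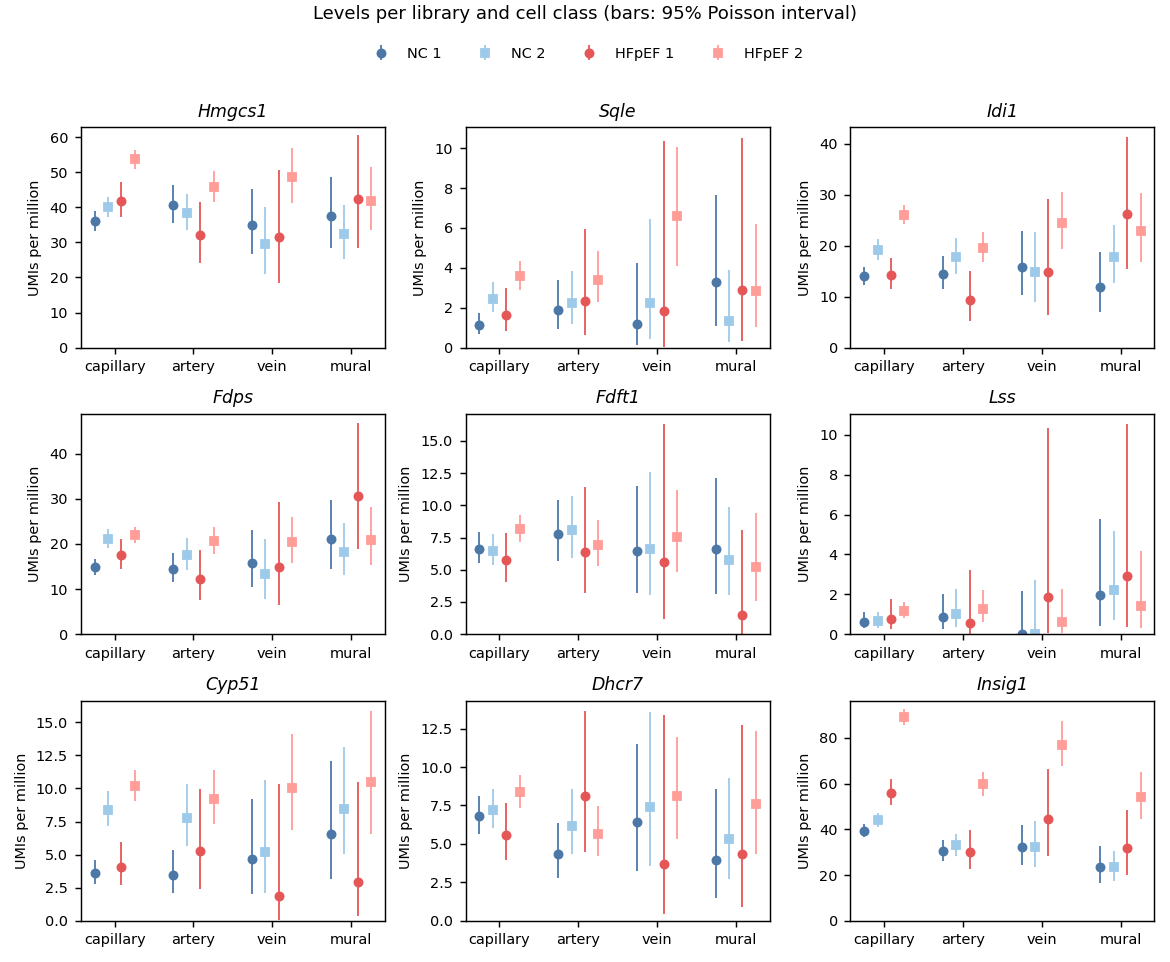
Levels of the 9 genes in CPM, before TMM scaling, for each library in 4 cell classes; points are libraries and bars are 95% Poisson intervals, which cover counting error only. HFpEF 2 had the highest Insig1 value in every class, and the Lss and Sqle values rest on few UMIs.

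In capillary ECs, Insig1 stood higher in HFpEF than in NC, with the other 8 genes showing smaller or less even differences. Insig1 read 39.5 CPM in NC 1, 44.0 in NC 2, 56.0 in HFpEF 1 and 88.8 in HFpEF 2. Each HFpEF library was higher than each NC library, and HFpEF 2 was 1.59 times as high as HFpEF 1. The fitted difference was 0.81 on the log2 scale (SE 0.20, 95% interval 0.35 to 1.28, n = 2 libraries per diet), which did not pass edgeR's adjusted threshold (adjusted p = 0.142). DESeq2 on the same sums gave an adjusted p of 0.0083, and a fit with the library number as a block gave 0.0428 in edgeR. Without a low-count filter edgeR also called it (adjusted p = 1.6e-07), but that setting called far more genes than the main fit, as counted below. Without HFpEF 2 the difference was 0.42, and without HFpEF 1 it was 1.10, each from a lone HFpEF library.

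Hmgcs1, the synthase that makes HMG-CoA, read 36.2 and 40.0 in NC against 41.8 and 53.5 CPM in HFpEF. The groups did not overlap, but the difference of 0.34 (SE 0.14) was not called (edgeR adjusted p = 0.256). Lss, which closes squalene epoxide into lanosterol, also had both HFpEF libraries above NC. It was counted in only 11, 12, 5 and 33 UMIs, and its difference of 0.71 had a 95% interval of -0.27 to 1.69.

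The other 6 genes overlapped between diets in capillary ECs. Sqle, squalene epoxidase and a rate-limiting step of the late pathway, read 1.12 and 2.47 in NC against 1.66 and 3.56 CPM in HFpEF. Cyp51, the lanosterol demethylase, read 3.64 and 8.42 in NC against 4.06 and 10.1 CPM in HFpEF. For both, the libraries numbered 2 were higher than those numbered 1 in either diet, by more than the diets differed. Idi1, the isomerase of the isoprenoid units, read 14.1 and 19.2 in NC against 14.3 and 26.0 CPM in HFpEF. Fdps, which joins isoprenoid units into farnesyl diphosphate, read 14.9 and 21.1 in NC against 17.5 and 21.8 CPM in HFpEF. Fdft1, squalene synthase, and Dhcr7, the reductase of a final step, stayed between 5.57 and 8.35 CPM in all 4 libraries. Without HFpEF 1, which left a lone HFpEF library, the Idi1 difference was 0.65. In 1 other setting, also with a library left out, the Idi1 difference was reversed.

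Of the 9 genes tested in capillary ECs, 0 were called in edgeR, where 0.00814% of 12286 genes were called in either direction. DESeq2 called 1 of the 9, Insig1, beside 1.84% of all genes, and the block fit called the same 1, beside 1.15%. At an unadjusted p under 0.05 in edgeR, 2 of the 9 were higher and 0 lower in HFpEF, beside 9.11% of all genes higher. HFpEF was above NC in each library pair for 3 of the 9, beside 24.3% of all genes, and below for 0, beside 25.8%. All 9 fitted differences were positive, with a median of 0.34 beside -0.0069 over all genes tested. The genes share 4 libraries and are not independent of each other. They were also chosen with earlier results of these data known, so their shared direction is a description. Of the 13 other cholesterol synthesis enzymes, 8 differences were positive and 5 negative, with a median of 0.089.

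**Figure D2:**
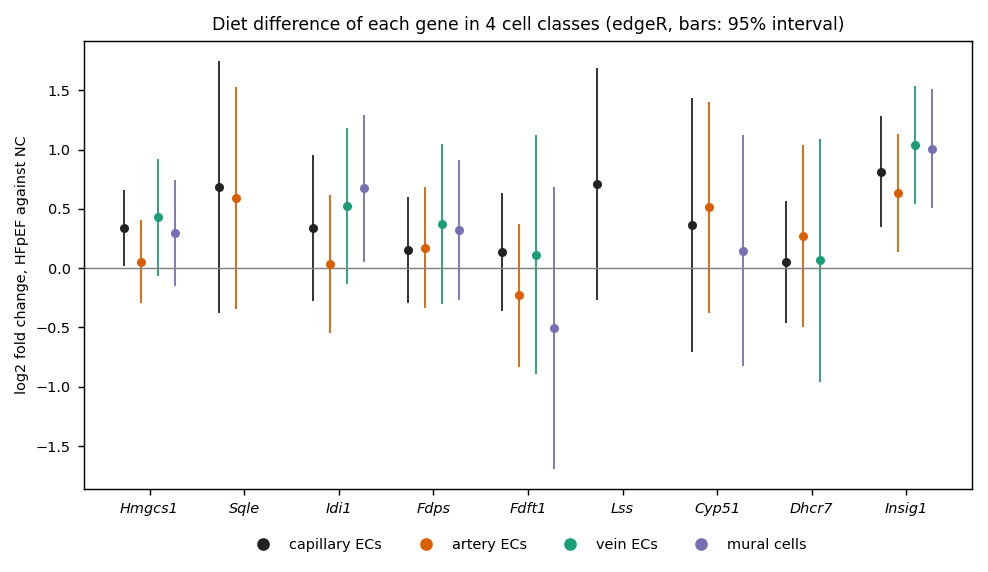
Log2 fold change of each gene, HFpEF against NC, in capillary ECs, artery ECs, vein ECs and mural cells; bars are 95% intervals of the edgeR fit, and a gene without a point was not tested in that class. The intervals of Insig1 lie above 0 in all 4 classes, and those of most other genes span 0.

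In artery ECs, Insig1 read 30.4 and 33.1 in NC against 30.7 and 59.3 CPM in HFpEF, so the diets overlapped and HFpEF 2 alone stood apart. The difference was 0.63 (SE 0.22, edgeR adjusted p = 0.303), and it was -0.049 without HFpEF 2. Without NC 2, which left a lone NC library, it was 0.71. Hmgcs1 read 40.6 and 38.4 in NC against 32.5 and 45.4 CPM in HFpEF, with a difference of 0.056 (SE 0.16). Sqle was the 1 gene of the 8 tested whose HFpEF libraries were both above NC, and Fdft1 the 1 with both below. These are 1 of 8 in each direction, beside 22.6% above and 22.7% below among all 11067 genes. Idi1 read 14.5 and 17.7 in NC against 9.45 and 19.5 CPM in HFpEF, and Fdps 14.5 and 17.6 in NC against 12.4 and 20.5 CPM in HFpEF. For both, HFpEF 1 was the lowest library and HFpEF 2 the highest. Cyp51 read 3.45 and 7.75 in NC against 5.31 and 9.11 CPM in HFpEF, again with the libraries numbered 2 higher. Of the 8, 0 were called in edgeR, beside 0.163% of all genes, and 0 in DESeq2, beside 0.370%. At an unadjusted p under 0.05 in edgeR, 1 of the 8, Insig1, was higher, beside 6.71%.

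In vein ECs, Insig1 read 32.3 and 33.0 in NC against 45.2 and 77.2 CPM in HFpEF. The difference of 1.04 (SE 0.24, edgeR adjusted p = 0.0636) did not pass the threshold, although the groups did not overlap. Without HFpEF 1 it was 1.24, and without HFpEF 2 it was 0.46, each from a lone HFpEF library. Insig1 was called without a low-count filter (edgeR adjusted p = 0.0011). It was also called with crossed library numbers as a block, a setting chosen after seeing the data (edgeR adjusted p = 0.0073). Both settings called more genes than the main fit, as counted below. Hmgcs1 read 35.2 and 30.0 in NC against 32.0 and 48.6 CPM in HFpEF, and overlapped. Fdps read 15.8 and 13.5 in NC against 15.1 and 20.4 CPM in HFpEF, and only HFpEF 2 stood apart. Of the 9 genes, 6 passed the filter on low counts, and 0 of these were called in edgeR, beside 0.555% of 9192 genes. DESeq2 called 0.152% of all genes, a share that counts genes without an adjusted p as not called. It gave no adjusted p to Insig1, which had the most UMIs of the 6 (369, then Hmgcs1 with 272). DESeq2 thus could not call Insig1 here, and its lack of calls among the 6 is not evidence of equal levels. Insig1 was the 1 of 6 with both HFpEF libraries above NC, beside 21.5% of all genes, and the 1 of 6 that was higher at an unadjusted p under 0.05 in edgeR, beside 6.44%. HFpEF lay below NC for 0 of the 6, beside 21.7%. Sqle, Lss and Cyp51 had too few UMIs to be tested in vein ECs.

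Mural cells gave the single call among the 9 genes: Insig1 rose in HFpEF. Its level was 23.8 and 23.4 in NC against 32.6 and 54.9 CPM in HFpEF, a difference of 1.01 (SE 0.24, 95% interval 0.51 to 1.51, edgeR adjusted p = 0.0453). These values rest on 36, 53, 22 and 114 UMIs. The call was lost with each library left out in turn (adjusted p from 0.0812 to 0.753), with the library number as a block (adjusted p = 0.0882), and with library size scaling, without cells under 1000 UMIs, without likely doublets or with a marker gate on single cells (adjusted p from 0.0559 to 0.302). Idi1 read 11.9 and 17.6 in NC against 26.7 and 23.1 CPM in HFpEF, without overlap, and its difference of 0.67 (SE 0.30) was not called (edgeR adjusted p = 0.417). Hmgcs1 read 37.6 and 32.2 in NC against 43.0 and 42.3 CPM in HFpEF. Of the 6 genes tested, 1 was called, beside 0.992% of 10079 genes called in either direction and 0.804% called higher. At an unadjusted p under 0.05 in edgeR, 2 of the 6 were higher, beside 6.39%. DESeq2 called 0 of the 6, beside 0.139% of all genes, a share that counts genes without an adjusted p as not called. It gave Insig1 no adjusted p and so could not call it, and of the 6 only Hmgcs1 had more UMIs (247 against 225). The lack of DESeq2 calls among the 6 is therefore not evidence of equal levels. Both HFpEF libraries lay above NC for 4 of the 6, beside 20.2% of all genes, and below for 1, Fdft1, beside 20.8%. Fdft1 rested on 10 and 13 UMIs in NC against 1 and 11 in HFpEF. It passed the low-count filter through its NC libraries only, so its place below NC is not evidence of a difference.

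**Figure D3:**
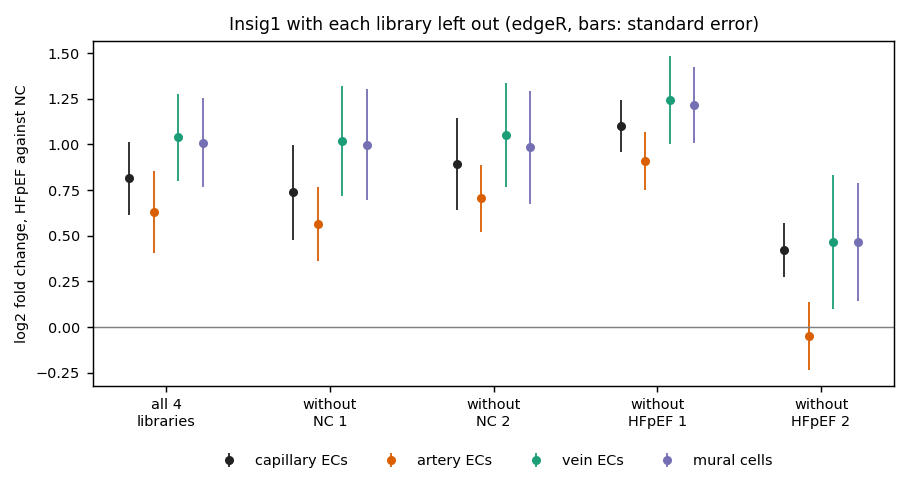
Insig1 log2 fold change, HFpEF against NC, in 4 cell classes with all libraries and with each library left out; bars are standard errors of the edgeR fit. Leaving out HFpEF 2 gave 0.42 in capillary ECs, -0.049 in artery ECs, 0.46 in vein ECs and 0.47 in mural cells.

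Over all ECs together, Insig1 read 37.1 and 40.8 in NC against 50.4 and 81.3 CPM in HFpEF, a difference of 0.78 (SE 0.21, edgeR adjusted p = 0.161). Without HFpEF 1 the difference was 1.07, from a lone HFpEF library. Insig1 was called without a low-count filter (edgeR adjusted p = 0.00014), a setting that called far more genes than the main fit, as counted below. In the main edgeR fit of all ECs none of the 9 genes was called, beside 0.0386% of 12961 genes. DESeq2 called 1, Insig1 (adjusted p = 0.0127), beside 2.12%. At an unadjusted p under 0.05 in edgeR, 1 of the 9 was higher, beside 9.13%. HFpEF lay above NC without overlap for 3 of the 9, beside 24.5%, and below for 0, beside 26.2%. Whether the diet difference varied between classes was tested by an interaction term, for the 7 of the 9 genes that passed the filter in that fit. The Insig1 difference in artery ECs minus that in capillary ECs was -0.25 (SE 0.13), that in vein minus capillary ECs 0.098 (SE 0.18) and that in mural cells minus capillary ECs 0.079 (SE 0.20). No member was called in any of the 3 tests (smallest edgeR adjusted p = 0.858), beside 0.0821% of 10966 genes called for artery ECs, 0.0365% for vein ECs and 0.365% for mural cells.

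Heat shock genes, whose chaperones rise with stress and with tissue dissociation, were also higher in both HFpEF libraries than in both NC libraries. Their summed level in capillary ECs was 10354 and 7068 CPM in NC and 17797 and 20805 in HFpEF. In mural cells it was 11322 and 7836 in NC and 17612 and 22249 in HFpEF. Immediate early genes did not separate the diets, at 18157 to 21442 in capillary ECs. Hemoglobin transcripts summed to 447 and 656 in NC and 1351 and 4503 in HFpEF capillary ECs. The part of heat shock genes in the Insig1 values was not tested. The capillary Insig1 difference was 0.82 without cells rich in hemoglobin and 0.78 without the 2 hemoglobin-led clusters. It was 0.96 with cells thinned to 1000 UMIs, where cells with fewer than 1000 UMIs were left out. Over all classes, that left out 512 cells of NC 1, 402 of NC 2, 1159 of HFpEF 1 and 6015 of HFpEF 2.

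The level of Insig1 also differed between cell classes, compared within libraries over 16 sums. Insig1 was lower than in capillary ECs in every library in artery ECs, vein ECs and mural cells. The difference was -0.56 in artery ECs (SE 0.068, edgeR adjusted p = 1.2e-07), -0.29 in vein ECs (SE 0.087, edgeR adjusted p = 0.0123) and -0.86 in mural cells (SE 0.095, edgeR adjusted p = 1.1e-08). Over the 4 libraries its level before TMM scaling was 57.1 ± 22.4 CPM (SD, n = 4) in capillary ECs, 46.6 ± 21.1 in vein ECs, 38.3 ± 14.3 in artery ECs and 33.4 ± 14.5 in mural cells. Hmgcs1 was lower in mural cells than in capillary ECs by a called -0.28 (SE 0.10, edgeR adjusted p = 0.0269). Before TMM scaling, however, its level was higher in capillary ECs in only 2 of the 4 libraries. The Hmgcs1 call was lost in edgeR with library size scaling (adjusted p = 0.127), without NC 2 (adjusted p = 0.141) and without HFpEF 2 (adjusted p = 0.246). Its differences of -0.13 in artery ECs and -0.20 in vein ECs were not called. The artery difference was called at resolution 1.2 (-0.26, edgeR adjusted p = 0.0211) and without NC 1 (-0.23, edgeR adjusted p = 0.0485), and was 0.049 with the marker gate on single cells.

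Of the 7 genes tested between classes, 1 was called lower in artery ECs, beside 32.7% of 10966 genes called in either direction. In vein ECs 1 of 7 was called lower, beside 28.6% called, and in mural cells 2 of 7 were called lower, beside 48.8% called. None of the 7 was called higher than in capillary ECs. Idi1, Fdps, Fdft1, Cyp51 and Dhcr7 were not called in any class. The closest to a call were Dhcr7 (-0.41, SE 0.16, edgeR adjusted p = 0.0513) and Idi1 (-0.26, SE 0.11, edgeR adjusted p = 0.0638) in artery ECs, where both were called in finer clusters at resolution 1.2 and without a low-count filter, Idi1 also without NC 1 and Dhcr7 also without HFpEF 1. Fdps stood at 18.8 ± 3.2 in capillary ECs, 16.2 ± 3.6 in artery ECs, 16.1 ± 3.0 in vein ECs and 22.7 ± 5.4 in mural cells (SD, n = 4).

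**Figure D4:**
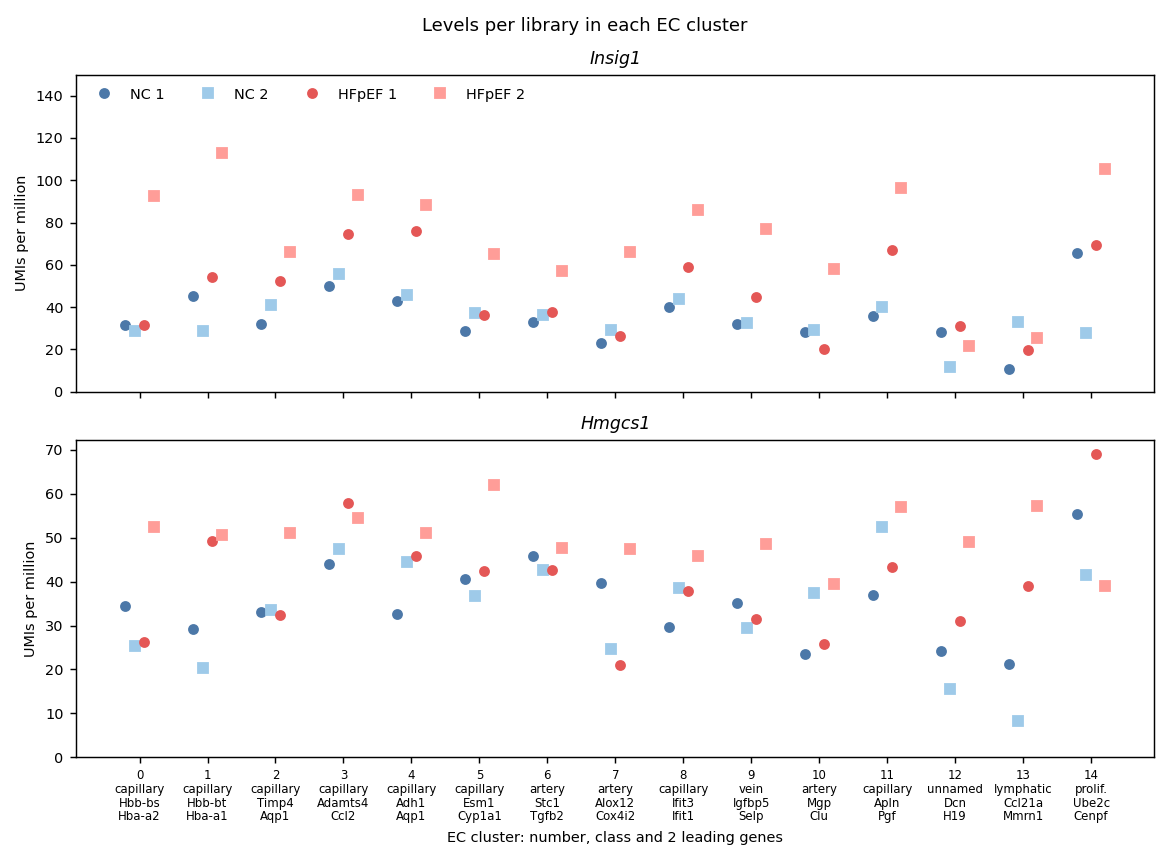
Insig1 and Hmgcs1 in CPM for each library in 15 EC clusters, labelled with the class and 2 leading genes; points are libraries. HFpEF 2 has the highest Insig1 value in 13 of the 15 clusters, and HFpEF 1 lies above both NC values in 11.

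Within the 15 clusters of the EC step, which were built without these 9 genes, both HFpEF values of Insig1 exceeded both NC values in 10 clusters, overlapped with them in 5 and lay below them in 0. The same held in 6 clusters for Hmgcs1, in 5 for Fdps, in 4 for Lss and in 2 or 3 for the other 5 genes. HFpEF lay below NC in 3 clusters for Fdft1, in 2 for Lss and in 1 for Idi1, and in 0 for the other 6 genes. Cluster 12, whose leading genes include Dcn, also carried fibroblast markers and was left unnamed and outside the EC sums. Over all 12286 genes tested in capillary ECs, the share with both HFpEF values above both NC values ran from 10.7% to 31.0% over the 15 clusters, and the share below from 14.2% to 24.4%. The clusters are parts of the same 4 libraries, so a library that is high can repeat across them. These counts are not independent observations. Lss was counted in 0 UMIs in both NC libraries in clusters 0 and 9, which are 2 of its 4 clusters above. In cluster 12, where it lay below, it had 0 UMIs in both HFpEF libraries and 1 in each NC library. Idi1 lay below in cluster 12, on 3 and 4 UMIs in NC against 0 and 1 in HFpEF. In cluster 13, 1 of the clusters below for Fdft1, that gene had 3 and 3 UMIs in NC against 0 and 1 in HFpEF.

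Cluster 3, a capillary cluster led by Adamts4 and Ccl2, was among the 4 highest of the 15 for Insig1 in each library. It read 49.8 CPM in NC 1, 55.7 in NC 2, 74.4 in HFpEF 1 and 93.1 in HFpEF 2. Cluster 1, led by hemoglobin genes with the heat shock genes Hsph1 and Hspa1b, was the highest in HFpEF 2 (113 CPM) and lay below cluster 3 in NC 1 (45.1), NC 2 (28.5) and HFpEF 1 (54.0). Idi1 was also among its 4 highest in each library in cluster 3, at 17.4, 28.3, 18.6 and 29.3 CPM in the same order. Sqle was among its 4 highest in each library in cluster 10, an artery cluster led by Mgp and Clu, from 5 UMIs in NC 1, 9 in NC 2, 1 in HFpEF 1 and 11 in HFpEF 2. The order of the other clusters changed between libraries, and these ranks are a description with no test.

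The rest of the pathway was described from fixed lists, and in capillary ECs no gene of any list was called. Of 13 other cholesterol synthesis enzymes, all tested, 3 had both HFpEF libraries above NC and 3 below, with a median difference of 0.089. For these lists, the shares over all genes are 24.3% above and 25.8% below. Ebp, the sterol isomerase, read 48.3 and 50.9 in NC against 38.8 and 39.1 CPM in HFpEF (difference -0.35, edgeR adjusted p = 0.163). Mvk, mevalonate kinase, read 10.4 and 13.9 in NC against 8.58 and 8.87 CPM in HFpEF. Msmo1, the sterol methyl oxidase, overlapped, with a difference of -0.053.

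Of 14 SREBP regulators, 4 had both HFpEF libraries above NC and 3 below, with a median of 0.012. Srebf2, which encodes SREBP2, differed by 0.0032 (SE 0.21), Scap by -0.18 (SE 0.13) and Insig2, the second INSIG, by 0.16 (SE 0.11). Erlin1 and Erlin2, partners in INSIG-dependent degradation, differed by 0.32 and -0.20, and Ube2g2, a ubiquitin-conjugating enzyme of that step, by -0.21. Of 7 sterol-regulated transport genes, 5 were tested, with 1 above, 1 below and a median of 0.25. Stard4, a cytosolic sterol carrier, read 41.3 and 43.4 in NC against 53.0 and 51.7 CPM in HFpEF (difference 0.30, edgeR adjusted p = 0.19). Npc2, which moves cholesterol out of lysosomes, differed by -0.25, and Npc1, its membrane partner, by 0.0080.

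Of 10 fatty acid synthesis targets of SREBP1, 0 lay above and 1 below, with a median of 0.12, and the abundant members Acly and Fads1 differed by 0.027 and -0.040. Of 10 LXR and oxysterol genes, 2 lay above and 4 below, with a median of -0.16. Lpcat3, a phospholipid remodelling enzyme, read 33.2 and 33.6 in NC against 24.2 and 23.1 CPM in HFpEF (difference -0.50, edgeR adjusted p = 0.115). Apoe read 384 and 415 in NC against 337 and 178 CPM in HFpEF, and Ch25h, which makes 25-hydroxycholesterol, differed by 0.57 (SE 0.16). Of 8 genes of the isoprenoid branch, 4 lay above and 4 below, with a median of 0.00072. Nus1, a subunit of the dolichol-making enzyme, read 113 and 111 in NC against 141 and 178 CPM in HFpEF, Ggps1 differed by 0.29 and Dhdds by -0.27. Without HFpEF 1, which left a lone HFpEF library, the differences were -1.16 for Apoe and 0.68 for Nus1. In artery ECs, vein ECs and mural cells, no gene of these 6 lists was called in the diet comparison either. In the interaction test of mural cells minus capillary ECs, 1 of the 10 LXR and oxysterol genes was called higher (edgeR adjusted p = 0.0399). That is beside 0.365% of 10966 genes called in that test.

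Among 6207 genes with a mean of at least 20 CPM over the 16 library-by-class sums, 4 of the 5 outside the lists that were most like the mean log2 level of the 9 genes were Wdr89 (Pearson r = 0.864), Kdelr2 (r = 0.828), Ssb (r = 0.812) and Ubxn2a (r = 0.802). The 16 sums share libraries and depth, and this likeness is a description.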

How the data were processed

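RFP-positive left ventricular cells were sequenced with 10x Genomics 3' V3 chemistry. Per the labels and methods, the authors trimmed reads with fastp and counted UMIs with Cell Ranger 5.0.1 on mm10. The deposited matrices hold UMI counts per gene and cell. The paper's methods also describe downsampling the samples by their mapped reads per cell before the matrices were aggregated. Barcodes carry a different numeric suffix in each library. Whether the deposited counts had been downsampled is not known, so depths and UMI totals are those of the deposited matrices. Cells with more than 200 genes and less than 20% mitochondrial UMIs were kept, and mitochondrial genes were then dropped. Cells were clustered (Louvain, resolution 0.8, 10 components, 20 neighbours) without the 9 genes, the pathway lists and hemoglobin genes, and clusters were classed by markers. EC clusters that passed no other threshold were classed as capillary by default. Doublets found by Scrublet (scanpy 1.11.5) were removed only as an alternative. Counts were summed per library and class, filtered with filterByExpr and tested in edgeR 4.0.16 (TMM, quasi-likelihood, Benjamini-Hochberg over all genes), with DESeq2 1.42.0 as an alternative. Class tests used library as a block. The fit was tested on simulated data.

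Members and lists were chosen with earlier results of these data known. All 9 members were named. A list gene was named if called in any class, if among the 3 of its list with the largest capillary difference at a mean of at least 10 CPM, or if a direct partner (Insig2, Scap, Srebf2, Msmo1 and others). The 5 genes most like the members' mean were also named. Some genes that these rules name are not reported here. Poisson intervals cover counting error only.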

Additional observations from a re-analysis of the deposited data

How the results depend on the processing

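Of 1037 values recomputed for 83 results, 917 kept their direction and their side of the threshold, 12 were weaker, 29 stronger and 79 reversed, the last all from differences that were not called. The cause was not tested unless stated. The Insig1 difference stayed positive in capillary ECs, vein ECs and mural cells under every alternative run, and was reversed in artery ECs without HFpEF 2. With 2 libraries per diet, leaving 1 out assumes that the lone library varies like the others. The capillary call count depended on the tool and filter, so the absence of calls among the members is not evidence of equal levels. Lss, Sqle and Cyp51 rest on few UMIs in the smaller classes, which limits their precision.

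The numbers of genes called in diet comparisons moved most. With DESeq2 they were 226 in capillary ECs, 41 in artery ECs, 14 in vein ECs, 14 in mural cells and 275 in all ECs, against 1, 18, 51, 100 and 5 in edgeR. Without a low-count filter they were 1054, 47, 226, 196 and 826 in that order, and the artery and mural interactions gave 45 and 97 against 9 and 40. Thinning to 1000 UMIs per cell gave 76, 42, 3, 8 and 16. Without likely doublets they were 10 in capillary ECs and 21 in mural cells, and without cells under 1000 UMIs 47 in mural cells and 1 in all ECs. At resolution 1.2 vein ECs gave 14. A cell-by-cell marker gate gave 35 in capillary ECs, 99 in vein ECs, 25 in mural cells, 1 in all ECs, 2131 against 3588 for artery and 1638 against 3141 for vein against capillary ECs, and 2 and 66 for the artery and mural interactions. Leaving out each library gave 0 to 587 in capillary ECs, 0 to 334 in artery ECs, 34 to 211 in vein ECs, 0 to 145 in mural cells and 4 to 202 in all ECs. It gave 2807 to 3352, 2462 to 2926 and 4480 to 5352 for the artery, vein and mural contrasts, and 0 to 25 and 6 to 54 for the artery and mural interactions. Leaving out the hemoglobin-led clusters, an alternative chosen after seeing the data, gave 10 in capillary ECs and 9 in all ECs.

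Over the genes as a whole, same-numbered libraries did not deviate together (r = 0.0085 in capillary ECs, 0.016 in artery ECs, -0.15 in vein ECs, 0.012 in mural cells). The crossed r has the same size and the opposite sign by construction. Such an r cannot show whether the number pairs the libraries for a smaller set of genes, so pairing was left undecided. With the number as a block, calls were 141, 177, 85, 64 and 33 in capillary, artery and vein ECs, mural cells and all ECs. A crossed pairing in vein ECs, also chosen after seeing the data, gave 264.

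Without a low-count filter, Apoe, Ch25h, Lpcat3 and Nus1 were also called in capillary ECs, and DESeq2 called Nus1. Dhcr7 was called lower in mural cells with the marker gate (-0.71), and lower in artery ECs without hemoglobin-rich cells (-0.41).

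The mural Insig1 call was lost with library size scaling (adjusted p = 0.0559), without cells under 1000 UMIs (0.0806), without likely doublets (0.302) and with the marker gate (0.127); DESeq2 gave no adjusted p, and after thinning the gene was not tested.

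Reversed values were as follows. Block: Srebf2 capillary -0.064, Idi1 artery -0.091, Dhcr7 vein -0.11, Fdft1 all ECs -0.025. DESeq2: Srebf2 capillary -0.014, Fdft1 all ECs -0.00081. No filter: Npc1 and Srebf2 capillary -0.0070 and -0.011, Fdft1 all ECs -0.0026. Thinning: Fdft1, Npc1, Fads1, Acly and Srebf2 capillary -0.0025, -0.021, 0.27, -0.039 and -0.018, Idi1 artery -0.093, Fdft1 all ECs -0.19. Without cells under 1000 UMIs: Npc1 and Fads1 capillary -0.0067 and 0.0046, Fdft1 all ECs -0.012. Without doublets: Npc1 capillary -0.013, Fdft1 vein -0.0056, Fdft1 all ECs -0.012. Without the hemoglobin-led clusters: Npc1 capillary -0.022, Fdft1 all ECs -0.031. Resolution 1.2: Fdft1 artery 0.20. Marker gate: Fdft1 artery 0.021, and against capillary ECs Hmgcs1 and Fdft1 in artery 0.049 and -0.048, Fdft1, Cyp51 and Dhcr7 in vein 0.13, 0.067 and 0.28, Fdps in mural cells -0.19.

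With each library left out, capillary values spanned -0.12 to 1.35 for Sqle, -0.22 to 0.65 for Idi1, -0.077 to 0.41 for Fdps, -0.20 to 0.32 for Fdft1, -0.57 to 1.08 for Cyp51, -0.34 to 0.26 for Dhcr7, -0.18 to 0.22 for Npc1, -0.50 to 0.21 for Fads1, -0.093 to 0.15 for Acly, -0.49 to 0.30 for Srebf2 and -0.45 to 0.18 for Msmo1. Artery values spanned -0.28 to 0.21 for Hmgcs1, -0.77 to 0.28 for Idi1, -0.37 to 0.36 for Fdps, -0.077 to 1.22 for Cyp51 and -0.049 to 0.91 for Insig1. Vein values spanned -0.040 to 0.57 for Hmgcs1, -0.042 to 0.66 for Idi1 and -0.87 to 0.23 for Dhcr7, and mural Cyp51 -1.34 to 0.47. In all ECs they spanned -0.11 to 1.15 for Sqle, -0.31 to 0.58 for Idi1, -0.10 to 0.34 for Fdps, -0.28 to 0.17 for Fdft1, -0.51 to 1.01 for Cyp51 and -0.16 to 0.24 for Dhcr7. Against capillary ECs they spanned -0.056 to 0.22 for Fdft1 in artery, -0.30 to 0.0045 for Cyp51 in vein, -0.058 to 0.21 for Fdps and -0.076 to 0.15 for Cyp51 in mural cells. The mural interaction spanned -0.026 to 0.17 for Insig1 and -0.34 to 0.16 for Hmgcs1.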

Other observations

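In capillary ECs, the libraries numbered 2 were above those numbered 1 in both diets for 8 of the 9 genes, beside 22.9% of all 12286 genes tested; Fdft1 was the exception. The ratio of library 2 to library 1 was 2.31 in NC and 2.49 in HFpEF for Cyp51, and 2.20 in NC and 2.15 in HFpEF for Sqle. These 2 genes were at least 1.5 times higher in both diets, beside 0.757% of all genes tested. In artery ECs 6 of the 8 genes tested went the same way in both diets, beside 23.9% of all genes, in vein ECs 3 of 6 did, beside 23.7%, and in mural cells 1 of 6 did, beside 24.9%. Scarb1 read 125 CPM in NC 1 against 52.0 in NC 2, and 127 in HFpEF 1 against 58.5 in HFpEF 2, in capillary ECs. This pattern was noticed after the values were seen, and it was not tested. The labels do not say how the libraries of a diet differ.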
